A study of Mus musculus with 4 samples.

Results

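The genes described here are the chemokine ligands and chemokine receptors of the mouse, followed in left ventricular free wall from transgenic and wild-type mice. They were taken from the raw count table by symbol: Ccl or Cxcl with a number, Ccr or Cxcr with a number, and Cx3cl1, Cx3cr1, Xcl1 and Xcr1. This gave 57 genes of 38355 in the table, 40 ligands and 17 receptors. The 30 with 10 or more raw counts in at least 2 libraries, 22 ligands and 8 receptors, are described with their values where reported, and the same 30 were the members that passed the filter on low counts and were tested.

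The series was made to look for cardiotoxicity of VSFP2.3, a voltage-sensitive fluorescent protein that reports membrane potential through energy transfer between its fluorophores, expressed here in heart muscle cells. Total RNA of 4 untreated mice was sequenced, with 1 library for each animal. The groups were wild type (WT, n = 2) and VSFP2.3 transgenic (TG, n = 2). WT 1 and TG 1 were males of 35 weeks, WT 2 and TG 2 were females of 19 weeks, and the labels list the same parents for each mouse. Sex and age therefore cannot be told apart. The sources used here name neither the promoter driving the transgene nor the strain. Each p-value rests on the spread between these 4 animals.

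Chemokines are small secreted or membrane-tethered proteins that direct the movement of leukocytes and of some tissue cells by binding receptors that couple to inhibitory G proteins. One set is made steadily by stroma and vessels, as Cxcl12 is in heart, and another is induced by interferon, microbial products or injury. In heart muscle the inducible members are known from infarction, myocarditis and pressure overload, where they accompany the entry of monocytes, neutrophils and lymphocytes. Several are encoded side by side in the genome.

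Total counts lay between 14158440 and 16762713, so that 0 counts in a library allowed a level of up to 0.179 to 0.212 CPM (counts scaled to a common library size after trimmed mean of M values normalization), counting error only. Counts of the sex-linked Ddx3y and Xist matched the labelled sexes, while the transgene's own transcript was not analysed here, which leaves genotype unchecked. Cardiomyocyte markers (6 of 6 detected) summed to between 50148 and 68143 CPM, with none at 0. WT 2 stood apart from the other libraries: Yam1 took 685444 counts there and at most 7376 elsewhere, and Myl4, the atrial myosin light chain, measured 75.6 CPM there and 0.711 to 1.16 CPM elsewhere. WT 1 stood apart in erythroid markers, which summed to 717 CPM there and to 142 to 235 CPM elsewhere.

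A single ligand, Cxcl12 (stromal cell-derived factor 1, which holds progenitor cells and lymphocytes in place through Cxcr4), made up most of the chemokine signal. Its level was 293 CPM in WT 1 and 282 CPM in TG 2, and 373 CPM in WT 2 and 373 CPM in TG 1. It held 53.5% of all ligand counts in WT 1, 84.3% in WT 2, 80.3% in TG 1 and 55.4% in TG 2. All ligands together summed to 548 CPM in WT 1, 442 in WT 2, 465 in TG 1 and 509 in TG 2, and without Cxcl12 to 255, 69.2, 91.8 and 227 CPM in the same order. Receptors summed to 83.7 CPM in WT 1 and 87.3 in TG 2, against 31.5 in WT 2 and 25.0 in TG 1. Most of the difference between libraries in the ligand sum therefore lay outside Cxcl12, and its direction was opposite to that of Cxcl12 itself.

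Compared per kilobase of exonic length, a scale that allows genes to be set against each other, Cxcl12 led with a mean of 40.4 CPM per kb over the 4 libraries. Ccl8 followed at 27.4, Cxcl14 at 18.7, Ccl6 at 10.1 and the receptor Cxcr4 at 9.58 CPM per kb. The mean hides the spread of Ccl8, whose lowest library held 0.876 and whose highest held 54.8 CPM per kb.

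**Figure D1:**
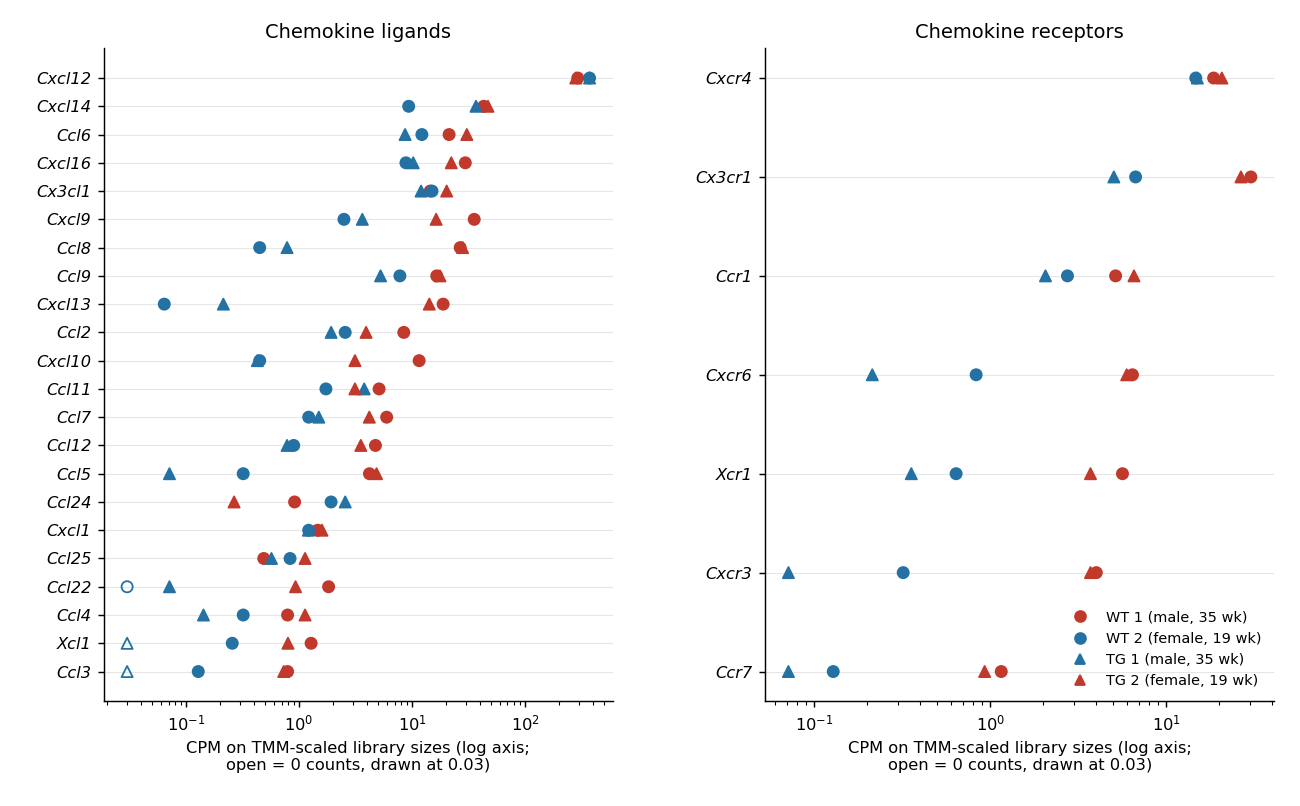
Level of the chemokine genes reported here in every library, in CPM on a log axis, ligands and receptors in separate panels, with 1 point for each library. For most genes the points of WT 1 and TG 2 sit to the right of those of WT 2 and TG 1, as for Ccl8 (26.7 and 28.0 against 0.448 and 0.782 CPM), while Cxcl12 and Ccl24 sit the other way round.

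The comparison of TG with WT, for which the series was made, showed none of the 30 chemokine genes tested separating the genotypes. With edgeR's quasi-likelihood test and Benjamini-Hochberg adjustment over 14189 genes, 0 of the 30 were called at 0.05, against 0.0% of all genes tested. None of the 30 had an unadjusted p under 0.05, while 99 genes of all those tested did (0.698%). DESeq2 called 3 genes and limma-voom 0, with 0 chemokine genes in either. In none of the 30 did both TG libraries lie above both WT libraries or both below, an arrangement that 10.3% and 10.7% of all genes tested showed. The median log2 difference, TG minus WT, was -0.14 over the 30 and -0.011 over all genes tested.

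The genes of smallest p in this comparison did not pass, and each had an adjusted p of 1.00. Of the genes lower in TG on average, Ccl2 (a monocyte attractant) gave a log2 difference of -0.91 ± 0.68 (SE), Cxcl10 -1.75 ± 1.52, Cxcl9 -0.93 ± 1.27, Xcl1 -0.92 ± 1.42 and Ccl22 -0.85 ± 1.72. Of those higher in TG on average, Cxcl14 gave 0.68 ± 0.69, Ccl25 0.37 ± 0.60, Cx3cl1 0.13 ± 0.28, Cxcr4 0.10 ± 0.23 and Ccl6 0.23 ± 0.63. Leaving out 1 library turned the median over the chemokine genes tested in either direction, to 0.99 when WT 1 was left out, 0.46 without TG 1, -0.88 without WT 2 and -1.88 without TG 2.

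The comparison of 35-week males with 19-week females called none of these genes either. edgeR called 0 of the 30 and 0 had an unadjusted p under 0.05, against 4 called among all genes tested (0.0282%) and 513 at an unadjusted p under 0.05 (3.62%). DESeq2 and limma-voom called 0 chemokine genes as well. The median log2 difference, males minus females, was 0.065 over the 30. It was -0.34 without WT 2, -1.37 without WT 1, 0.91 without TG 1, and 1.41 when TG 2 was left out.

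The chemokine genes differed along the remaining contrast of the layout, which asks whether the ratio of TG to WT was the same in the male and the female pair. It sets WT 1 (a male) and TG 2 (a female) against WT 2 and TG 1. edgeR called 12 of the 30, all higher in WT 1 and TG 2, beside 386 of all genes tested (2.72%), of which 336 were higher (2.37%) and 50 lower (0.352%). In bulk tissue fewer cells of a type and less RNA per cell cannot be told apart. The genes called were the ligands Ccl5, Ccl7, Ccl8, Ccl9, Ccl12, Cxcl9, Cxcl13 and Cxcl16 and the receptors Cx3cr1, Cxcr3, Cxcr6 and Xcr1. The median log2 difference was 2.01 over the 30, 1.68 over the ligands and 2.74 over the receptors, and -0.0052 over all genes tested. The contrast was chosen with earlier results of these data known and fitted alone, because the full layout leaves no residual degrees of freedom, so its p-values are no independent support. The count called depended on single libraries: 2 (Ccl8 and Cxcl13) without WT 1, beside 0.303% of all genes tested, and 5 without TG 2, beside 0.752%. It was 9 when WT 2 was left out (1.87% of all genes) and 11 when TG 1 was (2.49%). Of the 12, Ccl7, Ccl12, Cxcl9 and Cxcl16 were no longer called without WT 2, Ccl7 and Ccl12 were not without TG 1, and without TG 2 the call held for Ccl8, Cxcl9, Cxcl13 and Cx3cr1. It was 21 with no filter on low counts (4.20% of all genes), 17 with DESeq2 (4.95%), 18 with a replicate block (5.22%) and 9 with limma-voom (1.84%).

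In CPM, WT 1 and TG 2 both lay above WT 2 and TG 1 for 25 of the 30 genes, an order that 24.6% of all genes tested had. The opposite order held for 2, Cxcl12 and Ccl24, against 22.9% of all genes. Within pairs, 27 had a TG to WT ratio below 1 in the males and above 1 in the females (31.9% of all genes). For 21 the ratio was under 0.5 in the males and over 2 in the females (3.81% of all genes). Of the 30, 9 had 10 or more counts in WT 1 and TG 2 only (Ccl3, Ccl4, Ccl5, Ccl22, Ccr7, Cxcl10, Cxcl13, Cxcr3 and Xcl1). They passed the filter through those libraries and had to differ in this direction, and 3 of the 12 called (Ccl5, Cxcl13 and Cxcr3) are among them. Xcr1, also called, had 10 counts in WT 2 and 5 in TG 1. The edgeR filter scales its minimum count to library size, and WT 2 was the largest library. Xcr1 thus passed it through WT 1 and TG 2 only as well.

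**Figure D2:**
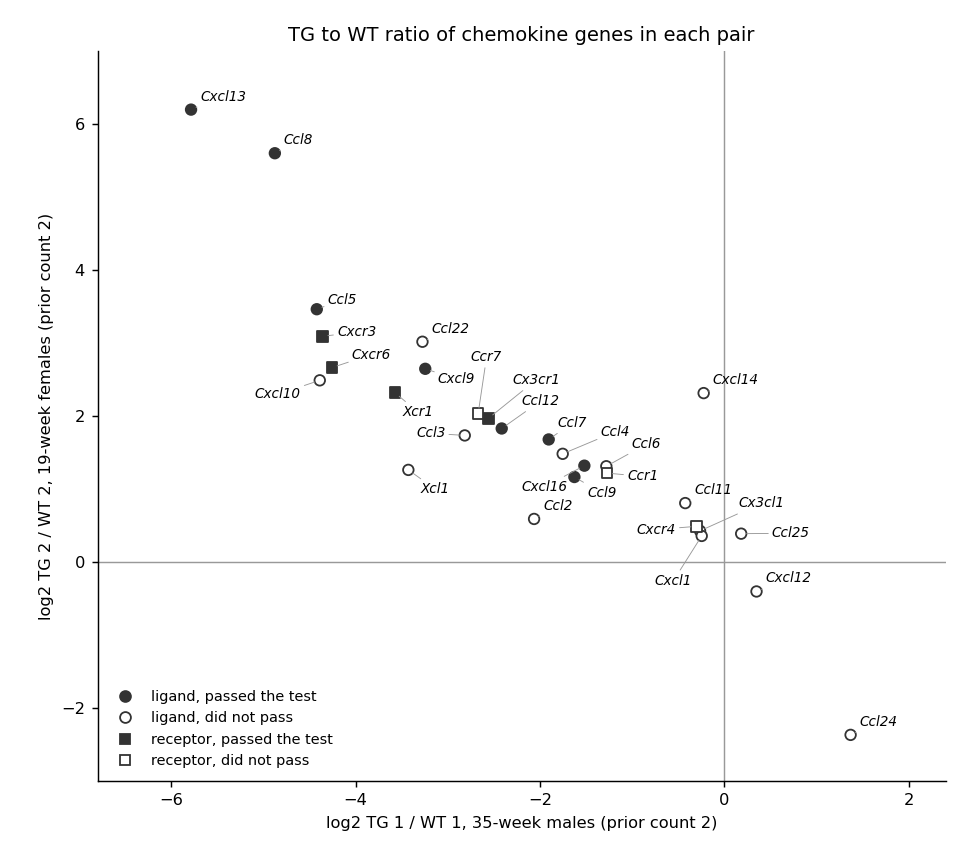
Log2 ratio of TG to WT (prior count 2) in the 35-week male pair on the horizontal axis and in the 19-week female pair on the vertical axis, 1 point for each chemokine gene reported here. Filled points passed the test of the genotype-by-pair contrast. Most lie at the upper left (lower in TG among the males, higher among the females), Cxcl13 and Ccl8 farthest out, and Ccl24 lies in the opposite corner.

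Upstream sequences are shown for 5 members: Ccl8 and Cxcl13 as the largest differences, Cxcl9 and Cxcl10 as the interferon-induced pair, and Cxcl12 as the most abundant ligand, of opposite order. Each is the 250 bases before the start of the RefSeq transcript (GRCm38.p6), 5′ to 3′ on the gene's strand, with matches to the searched motifs in capitals. They are Ccl8 at chr11:82114935-82115184, plus strand, Cxcl13 at chr5:95956689-95956938, plus strand, Cxcl9 at chr5:92328080-92328329, minus strand, Cxcl10 at chr5:92348890-92349139, minus strand, and Cxcl12 at chr6:117168285-117168534, plus strand.
Ccl8: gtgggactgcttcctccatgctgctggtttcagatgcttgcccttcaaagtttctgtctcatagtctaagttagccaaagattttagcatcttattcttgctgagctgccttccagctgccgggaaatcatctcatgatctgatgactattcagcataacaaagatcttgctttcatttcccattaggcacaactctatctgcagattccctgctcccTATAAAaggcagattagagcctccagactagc
Cxcl13: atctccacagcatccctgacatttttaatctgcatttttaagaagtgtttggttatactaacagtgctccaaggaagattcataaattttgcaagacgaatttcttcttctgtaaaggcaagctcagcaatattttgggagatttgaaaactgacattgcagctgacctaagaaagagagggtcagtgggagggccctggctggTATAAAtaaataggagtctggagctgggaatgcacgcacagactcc
Cxcl9: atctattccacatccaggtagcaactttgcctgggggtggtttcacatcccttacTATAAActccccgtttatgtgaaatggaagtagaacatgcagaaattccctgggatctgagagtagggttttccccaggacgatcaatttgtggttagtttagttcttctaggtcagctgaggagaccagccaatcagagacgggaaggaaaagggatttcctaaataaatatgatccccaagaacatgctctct
Cxcl10: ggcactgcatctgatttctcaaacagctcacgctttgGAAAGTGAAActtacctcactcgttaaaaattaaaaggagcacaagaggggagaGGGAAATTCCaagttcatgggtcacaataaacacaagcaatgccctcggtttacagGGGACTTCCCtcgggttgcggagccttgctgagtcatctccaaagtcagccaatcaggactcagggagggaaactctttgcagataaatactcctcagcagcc
Cxcl12: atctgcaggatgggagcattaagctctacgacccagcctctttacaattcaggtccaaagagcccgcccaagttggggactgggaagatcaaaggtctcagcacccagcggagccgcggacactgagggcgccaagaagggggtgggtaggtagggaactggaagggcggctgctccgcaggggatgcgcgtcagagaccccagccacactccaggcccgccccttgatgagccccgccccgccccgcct

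The motifs searched, on both strands, were the TATA box TATAAA, the interferon-stimulated response element (GAAA and GAAA again, 2 bases apart), the gamma-activated site TTCNNNGAA and the NF-kappaB consensus. Ccl8 had a TATA box 32 to 27 bases before its start, Cxcl13 at 46 to 41 and Cxcl9 at 195 to 190. Cxcl10 had an interferon-stimulated response element at 213 to 204 bases and NF-kappaB matches at 159 to 150 and 103 to 94. Cxcl12 had no match to any of these letters, a GC content of 64.4% and 14 CpG dinucleotides, where the median promoter had 52.4% and 6. GC content was 44.8% for Ccl8, 42.0% for Cxcl13, 44.4% for Cxcl9 and 48.0% for Cxcl10. Among 32851 mouse promoters of the same length, 12.4% held the TATA box, 2.98% the interferon-stimulated response element, 7.02% the gamma-activated site and 3.90% the NF-kappaB consensus. Of the 30 genes 21 were in the RefSeq table, and 9, 2, 1 and 3 of them held these motifs. A match describes the letters and does not show a bound site.

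Of the ligands of Cxcr3, which interferon induces and which draw activated T cells and NK cells, Cxcl9 was called. Cxcl9 (ENSMUSG00000029417, chr5:92321347-92328079, minus strand) measured 35.5 CPM in WT 1 and 16.3 CPM in TG 2, and 2.49 CPM in WT 2 and 3.63 CPM in TG 1, a log2 difference of 3.09 ± 0.43 (SE) with an edgeR adjusted p of 0.0271. Cxcl10, its neighbour (ENSMUSG00000034855, chr5:92346638-92348889, minus strand), measured 11.6 CPM in WT 1 and 3.12 CPM in TG 2, and 0.448 CPM in WT 2 and 0.427 CPM in TG 1, and its difference of 4.05 ± 0.77 did not pass (adjusted p = 0.0595). For both genes WT 1 and TG 2 lay above WT 2 and TG 1, as in 24.6% of all genes tested, and WT 1 was also above TG 2. Cxcl10 reached 10 counts in WT 1 and TG 2 only, so the filter itself fixed that its libraries did not overlap. The ratio of WT 1 to TG 2 was 3.70 (2.68 to 5.21) for Cxcl10 and 2.17 (1.87 to 2.53) for Cxcl9, with exact 95% intervals that cover counting error only. Without TG 2 both genes were called. Without WT 1 neither was, and without WT 2 neither was (adjusted p = 0.0697 for Cxcl9 and 0.142 for Cxcl10). Cxcl11, the remaining ligand, had at most 2 counts in a library.

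Cxcr3 itself, the receptor on those lymphocytes, measured 4.01 CPM in WT 1 and 3.72 CPM in TG 2, and 0.320 CPM in WT 2 and 0.0711 CPM in TG 1. Its log2 difference was 4.21 ± 0.50 (adjusted p = 0.0191), and the ratio of WT 1 to TG 2 was 1.08 (0.744 to 1.57). The receptor did not differ beyond counting error between the libraries in which Cxcl9 and Cxcl10 did.

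The monocyte-attracting ligands Ccl2, Ccl7, Ccl8 and Ccl12 are encoded together with the eotaxin Ccl11 on chromosome 11, between positions 82035571 and 82116799 (GRCm38). Ccl8 (ENSMUSG00000009185, chr11:82115185-82116799, plus strand) measured 26.7 CPM in WT 1 and 28.0 CPM in TG 2, and 0.448 CPM in WT 2 and 0.782 CPM in TG 1, a log2 difference of 5.47 ± 0.26 with an edgeR adjusted p of 0.00492. WT 1 and TG 2 could not be distinguished in it (ratio 0.952, interval 0.831 to 1.09). Ccl12 measured 4.74 CPM in WT 1 and 3.52 CPM in TG 2, and 0.896 CPM in WT 2 and 0.782 CPM in TG 1 (2.29 ± 0.32, adjusted p = 0.0286). Ccl7 measured 5.96 CPM in WT 1 and 4.18 CPM in TG 2, and 1.22 CPM in WT 2 and 1.49 CPM in TG 1 (1.90 ± 0.31, adjusted p = 0.0396). These 3 passed, and in each both WT 1 and TG 2 lay above both WT 2 and TG 1, as in 24.6% of all genes tested. Without WT 2 the adjusted p was 0.0674 for Ccl12 and 0.103 for Ccl7.

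Ccl2, the founding monocyte attractant of the cluster, had the same order but did not pass. It measured 8.45 CPM in WT 1 and 3.92 CPM in TG 2, and 2.56 CPM in WT 2 and 1.92 CPM in TG 1, with a difference of 1.46 ± 0.42 (adjusted p = 0.171), and WT 1 exceeded TG 2 by a ratio of 2.16 (1.58 to 2.98). Ccl11, which attracts eosinophils through Ccr3, measured 5.11 CPM in WT 1 and 3.12 CPM in TG 2, and 1.73 CPM in WT 2 and 3.77 CPM in TG 1, so its groups overlapped (0.60 ± 0.44, adjusted p = 0.580). Differences within these 81.2 kilobases thus ran from 0.60 for Ccl11 to 5.47 for Ccl8.

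**Figure D3:**
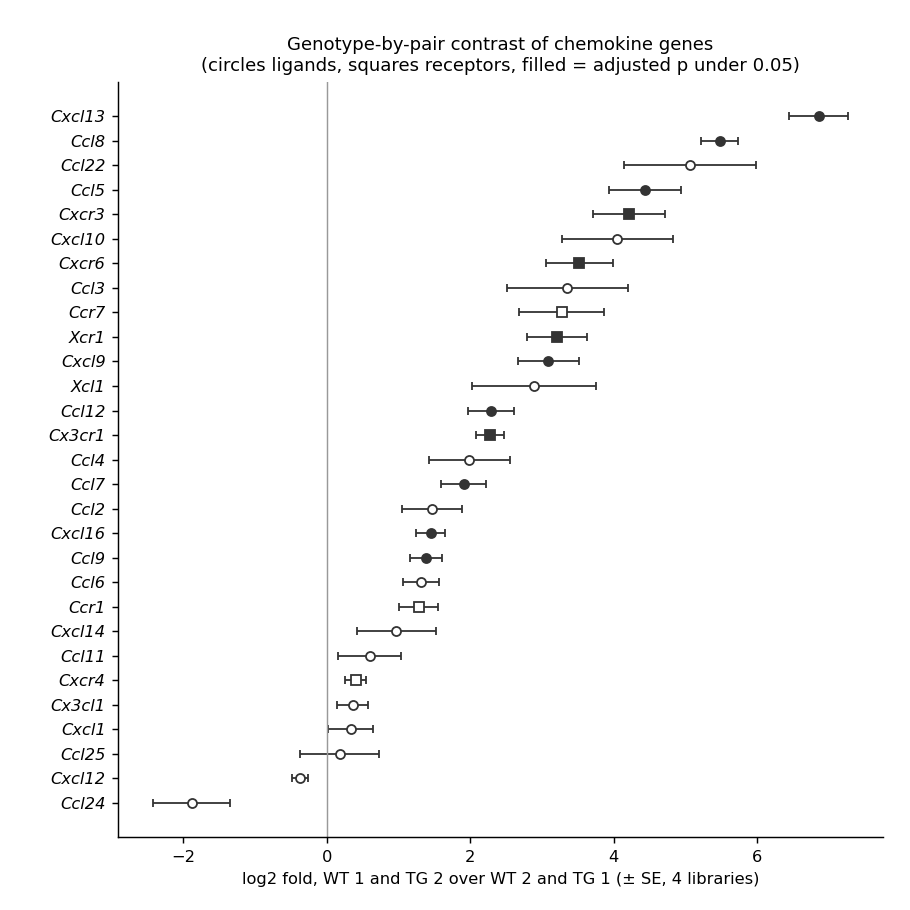
Log2 difference between WT 1 with TG 2 and the other 2 libraries for the chemokine genes reported here, with bars of 1 SE from the edgeR fit and filled points where the adjusted p was under 0.05. Cxcl13 at 6.85 and Ccl8 at 5.47 lie at the upper end, the receptors Cxcr3, Cxcr6, Xcr1 and Cx3cr1 lie above 2, and Cxcl12 and Ccl24 lie below 0.

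Of Ccl3, Ccl4 and Ccl5, which T cells, NK cells and macrophages release, only Ccl5 was called. It measured 4.20 CPM in WT 1 and 4.85 CPM in TG 2, and 0.320 CPM in WT 2 and 0.0711 CPM in TG 1 (4.43 ± 0.50, adjusted p = 0.0155). Ccl4 measured 0.790 CPM in WT 1 and 1.13 CPM in TG 2, and 0.320 CPM in WT 2 and 0.142 CPM in TG 1 (1.99 ± 0.57, adjusted p = 0.169). Ccl3 had raw counts of 13 in WT 1, 2 in WT 2, 0 in TG 1 and 11 in TG 2. With 2 counts in the lower libraries together, its ratio of WT 1 and TG 2 to WT 2 and TG 1 was 11.3 (2.81 to 98.7) and its adjusted p 0.124. All 3 ligands reached 10 counts in WT 1 and TG 2 only, so the filter itself fixed that the libraries did not overlap.

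The myeloid-made ligands Ccl6 and Ccl9, which act on Ccr1, stand next to them on chromosome 11, in a stretch from 83525778 to 83664683. Ccl9 measured 16.5 CPM in WT 1 and 17.7 CPM in TG 2, and 7.80 CPM in WT 2 and 5.26 CPM in TG 1 and was called (1.38 ± 0.22, adjusted p = 0.0375). Ccl6 measured 21.3 CPM in WT 1 and 30.5 CPM in TG 2, and 12.2 CPM in WT 2 and 8.68 CPM in TG 1 and was not (1.31 ± 0.25, adjusted p = 0.0606). Both were present in every library, and Ccl6 was lower in WT 1 than in TG 2 (ratio 0.697, interval 0.604 to 0.802), the reverse of Cxcl9 and Cxcl10.

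Ccr1, the receptor that several of these ligands share, had the same order without passing. It measured 5.17 CPM in WT 1 and 6.57 CPM in TG 2, and 2.75 CPM in WT 2 and 2.06 CPM in TG 1 (1.28 ± 0.27, adjusted p = 0.0778). DESeq2 called it.

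Cxcl13, which draws B cells into lymphoid follicles through Cxcr5, had the largest difference of any member. Located at chr5:95956951-95961068, plus strand (ENSMUSG00000023078), it had raw counts of 310 in WT 1, 1 in WT 2, 3 in TG 1 and 214 in TG 2. The corresponding levels were 18.8 CPM in WT 1 and 14.2 CPM in TG 2, and 0.0640 CPM in WT 2 and 0.213 CPM in TG 1. The fitted log2 difference was 6.85 ± 0.41 (adjusted p = 0.00575), and from the counts the ratio was 123 (47.9 to 455). Only Ccl8 and Cxcl13 were called under each of the 9 alternative settings run. Cxcl13 reached 10 counts in WT 1 and TG 2 only. The filter itself fixed the direction of its difference, so its calls are no separate support for it. Cxcr5 had raw counts of 14 in WT 1, 1 in WT 2, 0 in TG 1 and 8 in TG 2, which put it just under the naming threshold.

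B-cell and plasma-cell markers summed to 40.4 CPM in WT 1, 126 in TG 2, 6.52 in WT 2 and 9.10 in TG 1, and 2 of the 3 tested were called. Their part in the Cxcl13 result was not tested.

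The membrane-bound ligands split. Cxcl16, a transmembrane chemokine and scavenger receptor of macrophages and endothelium, measured 29.6 CPM in WT 1 and 22.2 CPM in TG 2, and 8.83 CPM in WT 2 and 10.2 CPM in TG 1 (1.44 ± 0.20, adjusted p = 0.0253). Part of its exonic length (18.3%) lies opposite exons of Zmynd15, whose counts were 91 in WT 1, 24 in WT 2, 13 in TG 1 and 56 in TG 2, and the sources used here do not state whether counting used strand. Reads from this stretch may come from either gene. Without WT 2 the adjusted p of Cxcl16 was 0.0562. Cxcr6, the receptor of Cxcl16 on resident and memory lymphocytes, measured 6.45 CPM in WT 1 and 5.98 CPM in TG 2, and 0.832 CPM in WT 2 and 0.213 CPM in TG 1 (3.52 ± 0.47, adjusted p = 0.0239).

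Cx3cl1 (fractalkine, made by endothelium and tethered to it) measured 14.5 CPM in WT 1 and 20.3 CPM in TG 2, and 15.0 CPM in WT 2 and 12.0 CPM in TG 1, with overlapping groups (0.36 ± 0.22, adjusted p = 0.50). Cx3cr1, its receptor on monocytes and resident macrophages, measured 30.4 CPM in WT 1 and 26.7 CPM in TG 2, and 6.72 CPM in WT 2 and 5.05 CPM in TG 1. The receptor was called (2.27 ± 0.19, adjusted p = 0.00972), also in 8 of the 9 alternatives. Its share of receptor counts was 36.3% in WT 1, 21.3% in WT 2, 20.2% in TG 1 and 30.6% in TG 2.

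Xcl1 is released by NK cells and CD8 T cells, and its receptor Xcr1 marks the dendritic cells that cross-present antigen. Xcr1 measured 5.65 CPM in WT 1 and 3.72 CPM in TG 2, and 0.640 CPM in WT 2 and 0.356 CPM in TG 1 (3.20 ± 0.42, adjusted p = 0.0224). Xcl1 had raw counts of 21 in WT 1, 4 in WT 2, 0 in TG 1 and 12 in TG 2 and was not called (2.89 ± 0.86, adjusted p = 0.184). The genes of Cxcr6, Xcr1 and Ccr1 lie close together on chromosome 9, and Ccr1 was not called.

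Ligands and receptors that guide cells to lymph nodes were scarce. Ccr7, which takes dendritic cells and naive T cells there, had raw counts of 19 in WT 1, 2 in WT 2, 1 in TG 1 and 14 in TG 2, a ratio of 10.4 (3.25 to 52.8) and an adjusted p of 0.0521. Its ligands Ccl19, Ccl21a and Ccl21b had 0 counts in every library, but each has near-identical copies in the genome among which reads may be lost. Ccl22, which draws regulatory T cells through Ccr4, had raw counts of 30 in WT 1, 0 in WT 2, 1 in TG 1 and 14 in TG 2. With 1 count in the lower libraries, its ratio was 41.5 (7.06 to 1675), and its adjusted p was 0.0531. Ccl17, the other Ccr4 ligand, had at most 2 counts in a library.

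Cxcl12 and its receptor Cxcr4 were not called. Cxcl12 (ENSMUSG00000061353, chr6:117168535-117181367, plus strand) had a log2 difference of -0.38 ± 0.11 (adjusted p = 0.164). Its lower libraries were WT 1 and TG 2, without overlap. Cxcr4 measured 18.7 CPM in WT 1 and 20.8 CPM in TG 2, and 14.8 CPM in WT 2 and 15.1 CPM in TG 1 (0.40 ± 0.14, adjusted p = 0.255). Cxcr4 held 22.3% of receptor counts in WT 1, 47.0% in WT 2, 60.2% in TG 1 and 23.8% in TG 2, so its share moved far more than its level.

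Ccl24 was the other gene of opposite order. An eosinophil attractant made by resident macrophages, it measured 0.912 CPM in WT 1 and 0.266 CPM in TG 2, and 1.92 CPM in WT 2 and 2.56 CPM in TG 1 (-1.89 ± 0.54, adjusted p = 0.166). Cd163, a scavenger receptor of resident macrophages, did not share its order: it measured 22.7 CPM in WT 1 and 5.98 CPM in TG 2, and 22.6 CPM in WT 2 and 16.0 CPM in TG 1. Of the 17 macrophage markers tested, 16 had a positive log2 difference in this contrast. Cd163 was the 1 with a negative difference (-0.42 ± 0.56).

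Cxcl14, a chemokine of epithelium and fibroblasts, followed a single library. It measured 43.1 CPM in WT 1 and 47.0 CPM in TG 2, and 9.34 CPM in WT 2 and 36.8 CPM in TG 1 (0.97 ± 0.55, adjusted p = 0.467). WT 2 was low against the other 3, at a ratio of WT 2 to TG 1 of 0.253 (0.209 to 0.305), and WT 2 is the library with the Yam1 and Myl4 counts given above. Without WT 2 the difference was 0.29 ± 0.14 (adjusted p = 0.394), and without TG 1 it was 2.27 ± 0.17 and passed (adjusted p = 0.00746).

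Cxcl1, a neutrophil attractant acting through Cxcr2, was near level in the libraries, at 1.46 CPM in WT 1 and 1.59 CPM in TG 2, and 1.22 CPM in WT 2 and 1.21 CPM in TG 1 (0.33 ± 0.32, adjusted p = 0.686). Ccl25, known from thymus and small intestine, measured 0.486 CPM in WT 1 and 1.13 CPM in TG 2, and 0.832 CPM in WT 2 and 0.569 CPM in TG 1 (0.18 ± 0.55, adjusted p = 0.914), with overlapping groups. Cxcl2 and Cxcl5, which attract neutrophils too, had at most 2 and 8 counts in a library, and Cxcr2 at most 5. Neutrophil markers were low: the list summed to 4.62 CPM in WT 1 and 3.85 in TG 2, and 1.28 in WT 2 and 1.21 in TG 1. Mpo and Elane had 0 counts in all 4 libraries. The 2 tested, S100a9 (2.70 ± 0.62, edgeR adjusted p = 0.0970) and Csf3r (1.52 ± 0.36, adjusted p = 0.103), were higher in WT 1 and TG 2 without passing. S100a9 had 3 counts in WT 2 and 1 in TG 1, so it passed the filter through WT 1 and TG 2.

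The 27 members that were not named fell into those without a count and those with few. In 11 there were 0 counts in every library: Ccl19, Ccl19-ps1, Ccl19-ps3, Ccl20, Ccl21a, Ccl21b, Ccl26, Ccl27b, Cxcl3, Cxcl15 and the receptor Cxcr1. The other 16 had at most 14 counts in any library: the ligands Ccl1, Ccl17, Ccl27a, Ccl28, Cxcl2, Cxcl5, Cxcl11 and Cxcl17 and the receptors Ccr3, Ccr4, Ccr6, Ccr8, Ccr9, Ccr10, Cxcr2 and Cxcr5. Just inside the naming threshold, the second-highest count was 11 for Ccl3 and 12 for Xcl1. Just outside it was 8 for Ccl28 and Cxcr5.

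Of 4 genes found in nearly all leukocytes, 3 were called higher in WT 1 and TG 2 (Ptprc, Coro1a and Laptm5). Ptprc (CD45) measured 73.4 CPM in WT 1 and 60.3 CPM in TG 2, and 11.6 CPM in WT 2 and 9.53 CPM in TG 1 (log2 difference 2.66 ± 0.17, adjusted p = 0.00575). T-cell markers summed to 41.5 CPM in WT 1, 40.3 in TG 2, 2.3 in WT 2 and 1.42 in TG 1, and 9 of 10 tested were called. Over all genes tested 2.72% were called. Every T-cell marker had under 10 counts in both WT 2 and TG 1. They passed the filter through WT 1 and TG 2 and had to differ in this direction. Of these 10 markers, 1 was at 0 in WT 2 and 2 in TG 1. Macrophage markers summed to 1007, 781, 387 and 394 CPM in the same order, with 8 of 17 called. Of these 8, Lyz1 had under 10 counts in WT 2 and TG 1. NK markers summed to 10.5, 7.11, 1.28 and 0.28 CPM (1 of 2 tested called). Those 2, Nkg7 and Gzma, also had under 10 counts in both WT 2 and TG 1. For dendritic cells the sums were 44.3, 41.8, 39.9 and 32.0 CPM (4 of 6 called, Xcr1 among them). Most of each sum was Zbtb46, which was not called and measured 24.3 CPM in WT 1 and 28.4 CPM in TG 2, and 38.3 CPM in WT 2 and 30.0 CPM in TG 1, so the sums and the calls describe different genes. Of the dendritic-cell markers, Flt3, Itgax, Clec9a and Batf3 had under 10 counts in both WT 2 and TG 1, and Xcr1 had 10 and 5. The part of the cell types above in the chemokine differences was not tested.

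Relative to Ptprc, the chemokine genes parted into 3 sets. Given as counts per 100 Ptprc counts, 9 stayed higher in both WT 1 and TG 2: Ccl5, Ccl8, Ccl22, Ccr7, Cxcl10, Cxcl13, Cxcr3, Cxcr6 and Xcr1. This order held for 0.923% of all genes tested. For some of the 9 the gap was narrow and rested on few counts. Cxcl10 stood at 5.18 in TG 2 and 4.48 in TG 1 (6 counts), and Xcr1 at 6.17 in TG 2 and 5.49 in WT 2 (10 counts). Cxcr6 stood at 8.78 in WT 1 and 7.14 in WT 2 (13 counts), and Ccr7 at 1.54 in TG 2 and 1.10 in WT 2 (2 counts). Whether these gaps exceed counting error was not tested. Of the 9, Ccl5, Ccl22, Ccr7, Cxcl10, Cxcl13 and Cxcr3 reached 10 counts in WT 1 and TG 2 only. They so entered through the libraries where they are high, and Xcr1 passed the edgeR filter only there too. Ccl8 stood at 36.4 in WT 1 and 46.5 in TG 2, and 3.85 in WT 2 and 8.21 in TG 1. Cxcl13 stood at 25.7 in WT 1 and 23.6 in TG 2, and 0.549 in WT 2 and 2.24 in TG 1. Ccl8 reached 10 counts in TG 1 as well.

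On the same scale 16 genes were lower in both WT 1 and TG 2, as 97.7% of all genes were, and 5 overlapped, Ccl3, Ccl4, Cxcl9 and Xcl1 among them. Cx3cr1 was among the 16, at 41.4 in WT 1 and 44.3 in TG 2, and 57.7 in WT 2 and 53.0 in TG 1 per 100 Ptprc counts. Ccl12 stood at 6.46 in WT 1 and 5.84 in TG 2, and 7.69 in WT 2 and 8.21 in TG 1. Both had thus differed in CPM by less than Ptprc did. Ccl24 stood farthest in this direction, at 1.24 in WT 1 and 0.441 in TG 2, and 16.5 in WT 2 and 26.9 in TG 1.

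**Figure D4:**
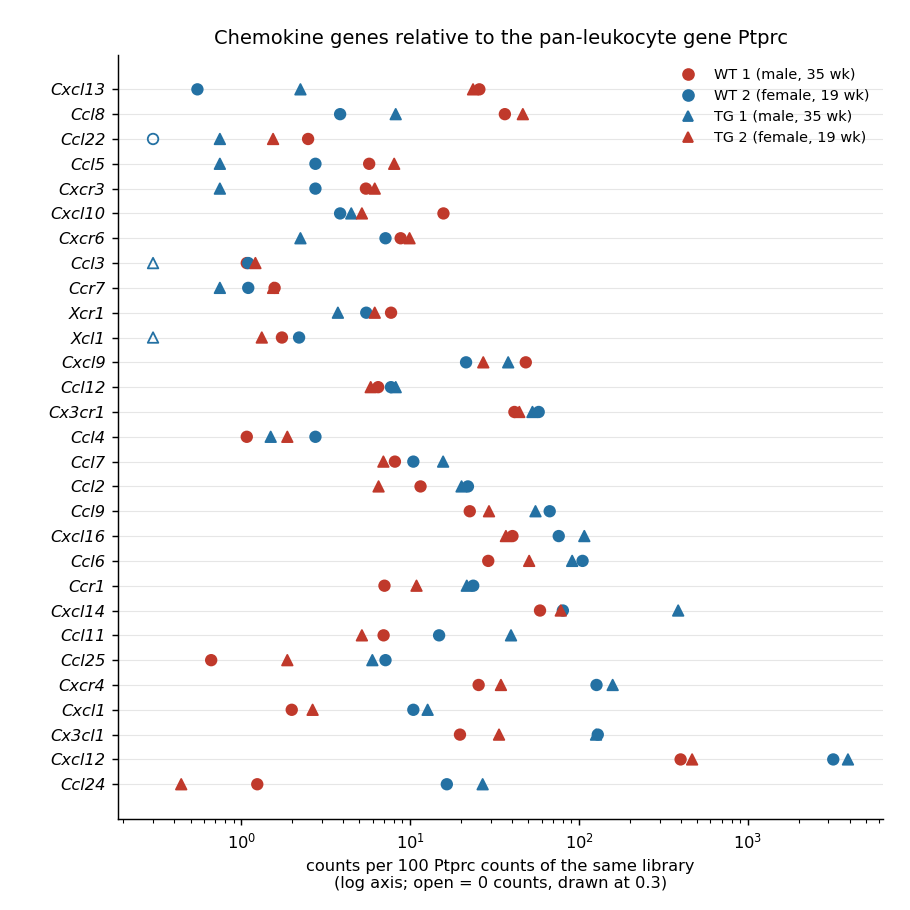
Counts of the chemokine genes reported here per 100 Ptprc counts, log axis, with 1 point for each library. Cxcl13 (25.7 and 23.6 against 0.549 and 2.24) and Ccl8 keep WT 1 and TG 2 on the right, Cx3cr1 has all 4 libraries between 41.4 and 57.7, and Ccl24 has WT 1 and TG 2 on the left.

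Genes that signal for, process or induce chemokines gave a mixed picture. Of 71 such genes, 65 were tested and 10 were called in the genotype-by-pair contrast, all higher in WT 1 and TG 2, with a median log2 difference of 0.36, where 2.72% of all genes tested were called. In the comparison of TG with WT 0 were called, 0 had an unadjusted p under 0.05, and the median was -0.11. The inducers gave 4 of 15. Il1b, an inflammatory cytokine of myeloid cells, measured 6.75 CPM in WT 1 and 5.58 CPM in TG 2, and 0.384 CPM in WT 2 and 0.285 CPM in TG 1 (4.16 ± 0.34, adjusted p = 0.00972). Il1b had under 10 counts in both WT 2 and TG 1 and passed the filter through WT 1 and TG 2. Irf8, a factor of the myeloid lineage, and Tlr2, a receptor for bacterial lipoproteins, were called too. Ifng was too low to test, with 0 counts in WT 2 and TG 1.

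The signalling list gave 6 of 31, with Pik3cg, Rac2, Dock2, Vav1 and Fgr among them, which are known from blood cells. Fgr had under 10 counts in both WT 2 and TG 1. Rac2, the GTPase that drives leukocyte migration, measured 19.6 CPM in WT 1 and 16.9 CPM in TG 2, and 2.49 CPM in WT 2 and 2.63 CPM in TG 1 (2.83 ± 0.19, adjusted p = 0.00575). Processing and shedding genes gave 0 of 9 and a median of 0.0012, and atypical receptors and related ligands 0 of 10. Over all genes tested the share called was 2.72%, so 0 in lists this short says little. Ackr3, the scavenging receptor for Cxcl12, measured 142 CPM in WT 1 and 97.4 CPM in TG 2, and 101 CPM in WT 2 and 121 CPM in TG 1. Its libraries overlapped between the groups.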

How the data were processed

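Libraries of left ventricular free wall, 1 for each of 4 mice, came from a stranded total RNA kit (TruSeq), per the labels' protocols. The authors deposited raw counts per gene and a normalized signal, which equalled the deposited counts divided by 1 factor per library and was not tested. STAR 2.3.0, HTSeq 0.6.1, DESeq and build mm10, with CASAVA 1.8.2 and FastQC 0.10.0, are listed per the submitters' processing notes. The sources used here give no strand setting or annotation release.

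Raw counts were tested with edgeR 4.0.16 in R 4.3.3 (quasi-likelihood, filterByExpr with a minimum count of 10, trimmed mean of M values), Benjamini-Hochberg over 14189 genes, threshold 0.05. Each contrast was fitted alone on all 4 libraries. DESeq2 1.42.0, limma-voom (limma 3.58.1), DESeq2 size factors, no filter, a replicate block and each library left out were alternatives. The code was tested on simulated data.

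Members with 10 or more counts in 2 libraries were named, and log2 differences of TG minus WT were printed for up to 5 genes of smallest p in each direction. Members, gene lists and contrasts were chosen with earlier results of these data known. A few genes are not reported here. Positions are from GENCODE vM21 (GRCm38) and sequences from RefSeq (GRCm38.p6). Copies were searched with blastn 2.17.0 (95% identity over 200 bases). Exact intervals and floors cover counting error only, at 3 counts for a count of 0.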

Additional observations from a re-analysis of the deposited data

Results flagged for a closer look

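Of the chemokine genes, 12 had a TG to WT ratio that differed between the 35-week male and the 19-week female pair by the test of that difference (edgeR's quasi-likelihood test, Benjamini-Hochberg adjustment over all genes tested), beside 2.72% of all genes tested. Of these, Ccl5, Cxcl13, Cxcr3 and Xcr1 passed the count filter of edgeR through WT 1 and TG 2 only. The values are log2 differences between WT 1 with TG 2 and the other 2 libraries, positive where the former were higher. Among the ligands they were 6.85 for Cxcl13, 5.47 for Ccl8, 4.43 for Ccl5, 3.09 for Cxcl9, 2.29 for Ccl12, 1.90 for Ccl7, 1.44 for Cxcl16 and 1.38 for Ccl9. Among the receptors they were 4.21 for Cxcr3, 3.52 for Cxcr6, 3.20 for Xcr1 and 2.27 for Cx3cr1. In all 12 both WT 1 and TG 2 lay above both WT 2 and TG 1, an order that 24.6% of all genes tested had. The 12 were selected by a test of this grouping, so their order is no separate result. Each of the 4 cells of the layout holds 1 mouse.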

How the results depend on the processing

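Limits first: 2 libraries for each side of a contrast leave 2 residual degrees of freedom, and when 1 library is left out the lone sample of its side is assumed to vary like the other group. For TG against WT, DESeq2 called 3 genes and the other settings with all 4 libraries 0. Leaving out each library gave 0 to 8 genes, 0 chemokine genes and a chemokine median of -1.88 to 0.99. Log2 differences changed sign for Ccl2 (-1.52 to 0.19), Cxcl10 (-3.79 to 1.97), Cxcl9 (-2.39 to 2.00), Xcl1 (-6.58 to 0.64), Ccl22 (-3.54 to 5.94, and 0.38 with limma-voom), Cxcl14 (-0.037 to 2.17), Cxcr4 (-0.15 to 0.32), Ccl6 (-0.95 to 0.87), Ccl25 (-0.21 to 0.80) and Cx3cl1 (-0.29 to 0.46). For males against females, 7 genes were called with no filter, 34 with DESeq2, 0 with genotype as a second term, and 0 to 9 with each library left out. The chemokine median was -0.042 with limma-voom, -0.017 with genotype as a second term and -1.37 to 1.41 with each library left out. For the genotype-by-pair contrast, 908 genes and 21 chemokine genes were called with no filter, 703 and 17 with DESeq2, and 44 to 366 and 2 to 11 with each library left out, with a chemokine median of 2.06 to 2.50. The replicate block called 741 genes and 18 chemokine genes, the 12 of the fit without it among them. Same-numbered libraries share sex and age but no stated litter or day, and their deviations correlated at -0.45, so they were not treated as pairs. Ccl25 turned to -0.054 without TG 1 and -0.52 without TG 2 (range -0.52 to 0.68). Of the 269 values of single chemokine genes in this contrast, 218 kept their direction and side of the threshold, 22 newly passed, 27 no longer passed and 2 reversed. The cause of these changes was not tested. Genes under about 1 CPM are limited by depth.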

Other observations

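Of the markers of muscle, stromal and vessel cells of the ventricular wall, few were called, beside 2.72% of all genes tested. At that share a list this short can easily hold no called gene, so 0 called says little about these cells. In the genotype-by-pair contrast, edgeR called 0 of 6 cardiomyocyte, 0 of 7 fibroblast and 0 of 8 smooth muscle and pericyte markers, with medians of -0.08, -0.10 and -0.14 on the log2 scale. Fibroblast markers summed to 1459 CPM in WT 1, 1275 in WT 2, 1520 in TG 1 and 1416 in TG 2. Of 8 endothelial markers 1 was called, Vwf (von Willebrand factor), lower in WT 1 and TG 2 by a log2 difference of -0.70 ± 0.11 (adjusted p = 0.0387). Over all genes tested 0.352% were called lower. The list summed to 1031 CPM in WT 1, 1343 in WT 2, 1200 in TG 1 and 1095 in TG 2. None was called among 5 lymphatic endothelial, 4 mast cell, 3 platelet, 4 erythroid, 3 adipocyte and 1 mesothelial markers tested. The erythroid markers (hemoglobin genes and Alas2) summed to 717 CPM in WT 1, 183 in WT 2, 235 in TG 1 and 142 in TG 2, so that WT 1 was the highest of the 4 libraries.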
